A study of Mus musculus with 12 samples.

Results

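The kininogens and the genes of blood coagulation and plasminogen activation described here are 8 genes picked by symbol from the table of raw counts per gene, out of 15774 genes in all. They are the kininogen genes Kng1 and Kng2, the plasminogen activator genes Plat and Plau, the urokinase receptor gene Plaur, the inhibitor gene Serpinb2, the tissue factor gene F3 and F13a1, which encodes the catalytic subunit of coagulation factor XIII. All 8 were found in the files. They were picked with their values in these libraries known, so their levels and folds are given as a description, with no test. RNA was sequenced from cortical cells that fluorescence-activated sorting had isolated as astrocytes, and the mice were wild-type C57BL/6J. In the stroke groups the distal middle cerebral artery was tied off for good and both common carotid arteries were then closed for 7 min, and cells were taken 1, 3, 7, 21 or 60 days later. Sham mice had lesions of the surface of the skull and no occlusion. Each of the 6 groups has 2 libraries. The sort marker, the number and age of the animals behind a library, and when the sham cells were collected are not given in the sources used here, so p-values measure the spread between these libraries, which may be technical, and time after surgery and age may differ from sham along with the stroke.

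Kininogens are secreted precursors from which kallikreins cut bradykinin, a peptide that dilates vessels and makes them leak, and the longer kininogen form is also a cofactor of contact activation of coagulation. Tissue factor on a cell surface starts coagulation when it meets factor VII in plasma, thrombin then makes fibrin, and factor XIII cross-links it. Tissue-type plasminogen activator (Plat) and urokinase (Plau) turn plasminogen into plasmin, which dissolves fibrin, and in the brain both also act on matrix proteins and receptors outside blood vessels. Astrocytes are known as the main source of tissue factor in the brain.

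Library totals ran between 13006008 and 16575045 counts for replicate 1 and between 97056596 and 156128922 counts for replicate 2. Levels are CPM, the usual counts relative to library size, scaled between libraries with TMM factors, and fold changes are log2 values ± standard error from 1 fit to all 12 libraries. A gene with 0 counts in both libraries of a group was set to a floor of 3 counts per library, and folds against it are lower bounds. Such floors cover counting error only. All 12 astrocyte markers listed were above 1 CPM in every library, but their sum took 0.187% and 0.102% of all counts on day 7, against 0.877% and 0.686% in sham. Aldoc, the most abundant of them in sham, fell from a mean of 5261 to 217 CPM. The markers did not move as one, since 8 were called lower than sham on day 7 and 2 higher (edgeR adjusted p under 0.05). Means rose from 168 to 458 CPM for Gfap, 117 to 562 for Gja1 and 89.9 to 224 for Gjb6. Fibroblast markers took 8.01% and 19.7% of counts on day 7, against 0.00672% and 0.00744% in sham, and sorted cells that express these genes and other cells in the sort cannot be told apart. In bulk libraries fewer cells of a type and less RNA per cell cannot be told apart.

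The members did not share 1 time course. Group means of Serpinb2, Plat, Plau and Plaur were highest on day 1, those of F3 and F13a1 on day 7, and those of both kininogen genes on day 21. Every member was above sham in both libraries on day 3 and on day 21. At day 1 the count was 6 of 8 members, on day 7 it was 7 and on day 60 it was 6. Of all 15635 genes tested, 33.8% had both libraries above both sham libraries on day 1, 35.0% on day 3, 40.4% on day 7, 38.4% on day 21 and 33.1% on day 60. No member had both libraries below sham at any time, which 33.2%, 31.2%, 36.0%, 35.4% and 34.3% of all genes did on days 1, 3, 7, 21 and 60. Because the members were picked with these values known, nothing is read from their counts.

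**Figure D1:**
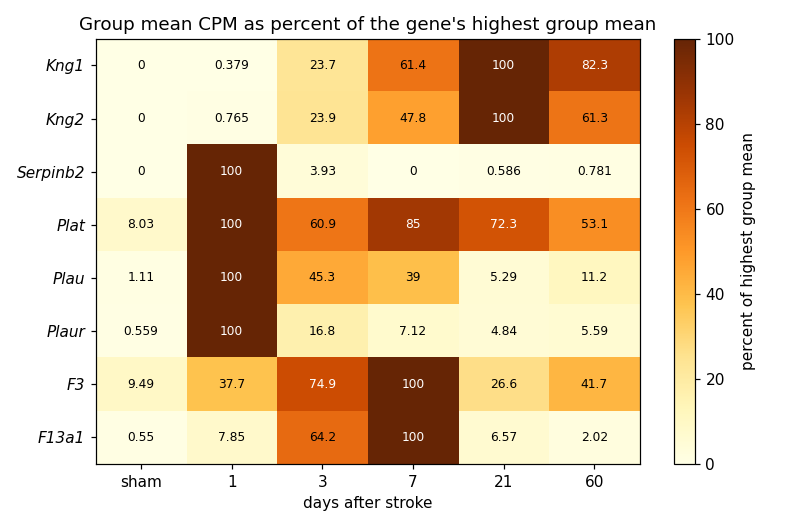
Group mean CPM (n = 2 libraries) of each member as a percent of that gene's own highest group mean, in sham and at 1, 3, 7, 21 and 60 days after stroke. Serpinb2, Plat, Plau and Plaur reach 100 on day 1, F3 and F13a1 on day 7, and Kng1 and Kng2 on day 21.

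Both kininogen genes had no reads in sham libraries and their highest levels late. Kng1 lies on the plus strand at chr16:23057865-23082078 and Kng2 on the minus strand at chr16:22985854-23029482 (mm10). Kng1 had no counts in either sham library, 0 and 0.372 CPM on day 1, 2.02 and 21.2 CPM on day 3, 20.2 and 40.1 CPM on day 7, 38.1 and 59.9 CPM on day 21, and 33.4 and 47.2 CPM on day 60 (replicate 1 first). Kng2 had no counts in either sham library, 0 and 0.799 CPM on day 1, 4.87 and 20.1 CPM on day 3, 15.05 and 34.9 CPM on day 7, 39.1 and 65.4 CPM on day 21, and 24.7 and 39.3 CPM on day 60. From day 3 on every library of both genes was above sham, while on day 1 the shallower library was at 0 as in sham. The replicates of day 3 differed most, with 32 counts of Kng1 in replicate 1 and 2319 in replicate 2.

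Against the sham floor Kng1 was at least 112-fold higher on day 3, 289-fold on day 7, 471-fold on day 21 and 388-fold on day 60. The bounds of Kng2 were 120.1-fold, 240.0-fold, 502-fold and 308-fold in the same order. On day 3 the bound was 19.5-fold from replicate 1 alone and 204-fold from replicate 2 for Kng1, and 46.8-fold and 193-fold for Kng2, whose bounds on day 7 were 145-fold and 335-fold. At day 1 replicate 1 held no read of either gene, which at its depth allows up to 0.167 CPM, so no fold is given. The means of days 21, 60 and 7 lay in that order for both genes, 49.0 ± 15.4, 40.3 ± 9.73 and 30.1 ± 14.1 CPM for Kng1 and 52.2 ± 18.6, 32.0 ± 10.3 and 25.0 ± 14.0 CPM for Kng2 (SD, n = 2). Day 21 was above day 7 in both Kng2 libraries, whereas the other neighbours in that order overlapped. Day 3 was above day 1 in both libraries of both genes.

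The 2 kininogen genes are close copies, and how reads that match both were counted is not given in the sources used here. Their coding sequences (GENCODE M21) were identical at 1791 of 1929 aligned bases, which is 92.8%, and the longest identical run held 116 bases. Of all stretches of 50 bases in the annotated exons, 17.2% of those of Kng1 also occur in Kng2 and 19.4% of those of Kng2 occur in Kng1. At a length of 100 bases the shares were 4.93% and 5.29%. The first 90 coding bases, at the start codon, carry no difference and show where a read cannot tell the genes apart.
Kng1 (chr16:23058444-23058533, plus strand): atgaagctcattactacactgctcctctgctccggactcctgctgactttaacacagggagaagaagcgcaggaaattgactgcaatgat
Kng2 (chr16:23028820-23028909, minus strand): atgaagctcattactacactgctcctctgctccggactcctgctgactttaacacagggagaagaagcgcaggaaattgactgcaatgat
The stretch of 90 coding bases with the most differences, shown with the 20 differing bases in capitals, runs from coding base 338 to base 427 across an intron in each gene, so its coordinates span more than its length.
Kng1 (chr16:23061642-23067733, plus strand): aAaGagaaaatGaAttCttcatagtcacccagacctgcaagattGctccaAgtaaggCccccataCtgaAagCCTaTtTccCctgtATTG
Kng2 (chr16:23012131-23024890, minus strand): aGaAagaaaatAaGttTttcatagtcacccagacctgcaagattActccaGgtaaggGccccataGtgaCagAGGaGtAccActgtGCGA
Counts of Kng1 over those of Kng2 came to 0.465 in replicate 2 of day 1, 0.416 and 1.05 on day 3, 1.34 and 1.15 on day 7, 0.974 and 0.916 on day 21, and 1.35 and 1.20 on day 60. Log2 levels of the 2 genes correlated at r = 0.994 over the 12 libraries, as a description of libraries that share depth by replicate and of genes that may share reads. The split of reads between Kng1 and Kng2 is therefore uncertain, and their common time course is the firmer value.

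**Figure D2:**
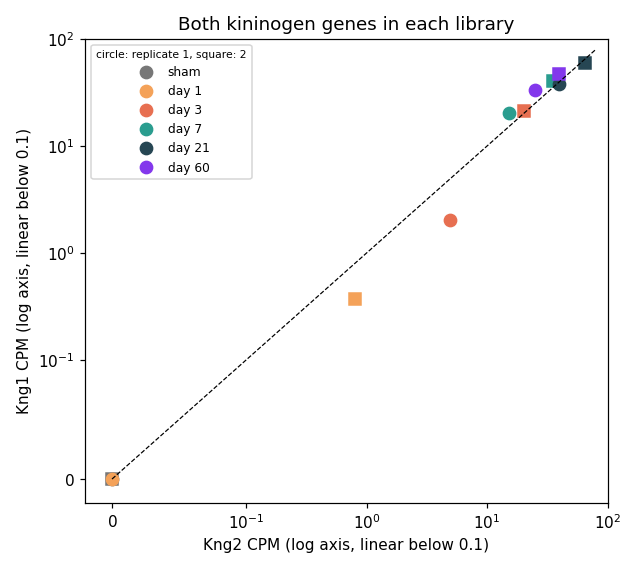
CPM of Kng1 (vertical axis) against CPM of Kng2 (horizontal axis) in each of the 12 libraries, on log axes that turn linear below 0.1, coloured by group, with circles for replicate 1 and squares for replicate 2. The dashed line marks equal CPM; libraries from day 7 on lie close to it, while replicate 2 of day 1 and replicate 1 of day 3 lie below it.

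The liver is the known main source of plasma kininogen. Of 8 listed hepatocyte markers 5 were measured, and Alb, Ambp and Serpina1c were not. The 5 measured summed to at most 5.05e-4% of counts in any library, between 3 and 5 of them were under 1 CPM in each library, and 1 or 2 were at 0. On day 21 1 of them was called higher than sham and 1 lower, and on day 60 1 was called higher. Fibroblast markers are set beside the kininogens at each time. On day 1 they took 0.193% and 0.260% of counts, against 0.00672% and 0.00744% in sham. Kng1 and Kng2 had 0 counts in replicate 1 of that day and 0.372 and 0.799 CPM in replicate 2. The fibroblast markers took 0.669% and 2.36% of counts on day 3, 8.01% and 19.7% on day 7, 2.86% and 4.59% on day 21 and 1.82% and 2.47% on day 60, and none was at 0 in any library. Their summed share was highest on day 7, where Col1a1, Col1a2 and Col3a1 made up 95.6% and 98.5% of it. The other 7 markers together took 0.171% and 0.116% of counts on day 1, 0.262% and 0.490% on day 3, 0.350% and 0.304% on day 7, 1.01% and 1.01% on day 21 and 1.12% and 1.12% on day 60, against 0.00317% and 0.00365% in sham. Without those 3 collagen genes the share was thus higher on days 21 and 60 than on day 7. The highest group mean was on day 7 for 5 of the 10 markers, namely Pi16, Col15a1 and the 3 collagen genes. It was on day 3 for 1, on day 21 for 2 and on day 60 for 2. Of all 10 markers, 8 were called higher than sham at each of the 5 times. The part of fibroblasts in the kininogen counts was not tested.

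Plat, which encodes tissue-type plasminogen activator (chr8:22757727-22782844), was the member with the highest level in sham per kilobase of exon, 30.2 CPM. It had 77.3 and 75.2 CPM in sham, 1475 and 426 CPM on day 1, 579 and 577 CPM on day 3, 657 and 958 CPM on day 7, 651 and 723 CPM on day 21, and 375 and 635 CPM on day 60. All 10 stroke libraries lay above both sham libraries, and the pair of day 1 was the least alike. The log2 fold change against sham was 3.64 ± 0.59 on day 1, 2.92 ± 0.57 on day 3, 3.41 ± 0.58 on day 7, 3.17 ± 0.57 on day 21 and 2.73 ± 0.56 on day 60. Without replicate 1 of day 1 the value of day 1 was 2.43. Plat thus had a raised level at every time, with no order between days 1 and 7 or between days 7 and 21 beyond the spread of the libraries.

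Plau, which encodes urokinase (chr14:20836660-20843385), was close to 0 in sham. It had 4 counts in replicate 1 of sham and none in replicate 2, which gives 0.239 and 0 CPM. It had 13.5 and 8.02 CPM on day 1, 4.37 and 5.35 CPM on day 3, 5.24 and 3.13 CPM on day 7, 0.616 and 0.519 CPM on day 21, and 1.15 and 1.26 CPM on day 60. Every stroke library was above sham, both libraries of day 1 were above all others, and day 21 was the lowest time after stroke. The log2 fold change was 7.21 ± 1.44 on day 1, 6.07 ± 1.39 on day 3, 5.84 ± 1.39 on day 7, 2.96 ± 1.35 on day 21 and 4.06 ± 1.35 on day 60. These values hang on the 4 sham counts. Without replicate 1 of sham no sham count is left, so no fold is given. Without replicate 2 of sham the value was 5.47 on day 1 and 1.23 on day 21. Per kilobase of exon, the mean level on day 1 was 376 CPM for Plat and 4.58 CPM for Plau, and in sham it was 30.2 and 0.051 CPM.

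Plaur, which encodes the receptor that holds urokinase at the cell surface (chr7:24462484-24475968), had its highest level on day 1. It had 4.002 and 5.11 CPM in sham, 1236 and 394 CPM on day 1, 180.1 and 93.5 CPM on day 3, 55.5 and 60.6 CPM on day 7, 36.2 and 42.6 CPM on day 21, and 49.2 and 41.9 CPM on day 60. Days 1, 3 and 7 followed each other downwards with no overlap, day 21 was below day 7 in both libraries, and days 21 and 60 overlapped. All 10 stroke libraries stayed above sham. The log2 fold change was 7.48 ± 0.67 on day 1, 4.90 ± 0.60 on day 3, 3.67 ± 0.56 on day 7, 3.11 ± 0.55 on day 21 and 3.32 ± 0.56 on day 60. At day 1 the receptor gene stood at 541 CPM per kilobase of exon, the highest group mean of any member on that scale. That mean joins 821 in replicate 1 and 261 in replicate 2, and without replicate 1 the log2 fold change of day 1 was 6.38.

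Serpinb2 encodes a serpin that inhibits urokinase and tissue-type plasminogen activator and is kept mostly inside cells (chr1:107511423-107535478). It had no counts in either sham library, 71.7 and 45.6 CPM on day 1, 3.16 and 1.44 CPM on day 3, 0 counts in both libraries of day 7, 0.392 and 0.295 CPM on day 21, and 0.916 and 0 CPM on day 60. Behind these values stand 1290 and 4904 counts on day 1, 50 and 158 on day 3, 7 and 33 on day 21, and 16 and 0 on day 60. Serpinb2 was thus a gene of day 1, and the libraries of day 3 were below those of day 1 with no overlap. Against the sham floor it was at least 564-fold higher on day 1. The bound was 22.1-fold on day 3 (30.4-fold from replicate 1 and 13.9-fold from replicate 2 alone). On day 21 the bound was 3.30-fold (3.77-fold from replicate 1 and 2.84-fold from replicate 2 alone). At day 7 Serpinb2 was at least 20.1-fold lower than on day 3. At day 60 all 16 reads came from replicate 1, the shallower library.

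**Figure D3:**
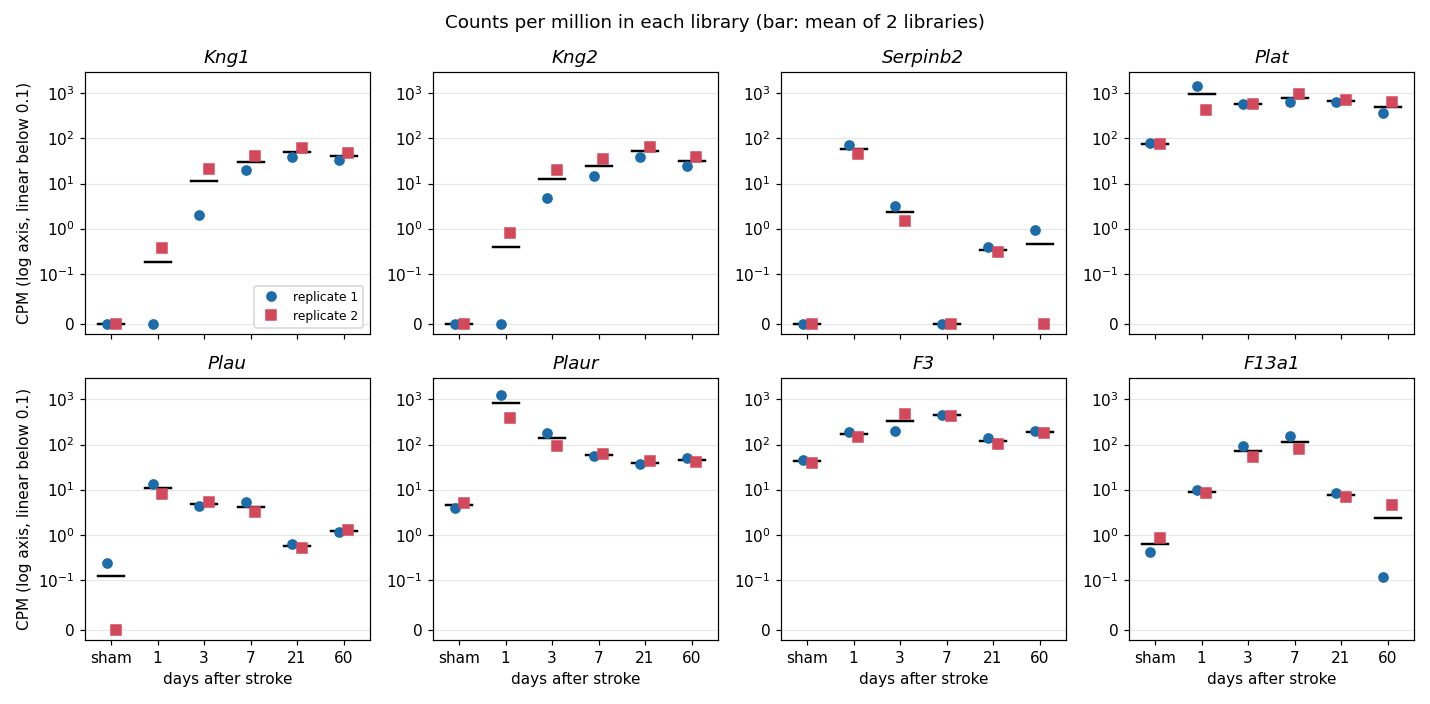
CPM of each member in each library, on a log axis that turns linear below 0.1, in sham and at 1, 3, 7, 21 and 60 days after stroke. Circles are replicate 1, squares replicate 2 and bars the mean of both; Serpinb2 returns to 0 on day 7, while Plat stays between 375 and 1475 CPM in all stroke libraries, against 77.3 and 75.2 CPM in sham.

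Endothelial markers were also highest on day 1, where the 10 genes took 0.716% and 0.407% of counts, against 0.122% and 0.177% in sham. At day 3 they took 0.390% and 0.0808%, on day 7 0.0517% and 0.0531%, on day 21 0.132% and 0.163%, and on day 60 0.138% and 0.169%, and none was at 0 in any library. Of these 10 markers 7 were called higher than sham on day 1, 3 on day 3 and 1 on day 60. Replicate 1 of day 1 had higher levels than replicate 2 of Plat, Plaur, Plau and Serpinb2, and also of F3 and F13a1. Its share of endothelial markers was larger, and its astrocyte markers took 0.462% of counts against 1.36% in replicate 2. The 10 fibroblast markers took 0.193% against 0.260%, but without the 3 collagen genes the other 7 took 0.171% against 0.116%. The part of endothelial RNA in the day 1 levels of Plat, Plaur, Plau and Serpinb2 was not tested.

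F3, the tissue factor gene (chr3:121723537-121735048), had 46.1 and 39.1 CPM in sham, 189 and 149.5 CPM on day 1, 198 and 474 CPM on day 3, 456 and 441 CPM on day 7, 138 and 101 CPM on day 21, and 197 and 178 CPM on day 60. All 10 stroke libraries were above sham. Both libraries of day 21 were below those of days 7 and 60, so the level was lower on day 21 than before and after it. The log2 fold change was 1.99 ± 0.43 on day 1, 2.98 ± 0.44 on day 3, 3.40 ± 0.45 on day 7, 1.49 ± 0.42 on day 21 and 2.14 ± 0.43 on day 60. Day 21 against day 7 gave -1.91 ± 0.43, and day 60 against day 21 gave 0.65 ± 0.41. Days 3 and 7 could not be ordered, since replicate 2 of day 3 was above both libraries of day 7 and replicate 1 was below both.

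F13a1 (chr13:36867178-37050244) is known from macrophages and platelets. It had 0.418 and 0.847 CPM in sham, 9.73 and 8.30 CPM on day 1, 93.3 and 54.2 CPM on day 3, 151 and 78.5 CPM on day 7, 8.401 and 6.70 CPM on day 21, and 0.115 and 4.53 CPM on day 60. Days 3 and 7 were above all other times in every library, and on day 60 one library was below sham and the other above it. The log2 fold change was 3.75 ± 1.06 on day 1, 6.78 ± 1.20 on day 3, 7.42 ± 1.24 on day 7, 3.49 ± 1.05 on day 21 and 1.87 ± 0.997 on day 60. The value of day 60 rests on 2 counts in replicate 1 and 625 in replicate 2, and without replicate 2 it was -2.53. Exons of F13a1 overlap those of Gm30489 on the opposite strand, so reads of the 2 could be mixed if counting ignored strand.

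The macrophage gene Ms4a7 had 104.0 and 66.0 CPM on day 3, 103.5 and 102 CPM on day 7, 19.4 and 22.9 CPM on day 21, and 32.6 and 30.7 CPM on day 60, against 0.657 and 0.443 CPM in sham. The 12 markers of border and infiltrating macrophages took 0.0629% and 0.124% of counts on day 1, 0.140% and 0.116% on day 3, 0.341% and 0.345% on day 7, 0.118% and 0.141% on day 21, and 0.0604% and 0.0839% on day 60, against 0.00650% and 0.0330% in sham. Of these 12 genes 2 were at 0 in each sham library and none was at 0 on days 1, 3 and 7. The platelet marker Pf4, which macrophages can also express, had 95.4 and 63.2 CPM on day 3 and 8.13 and 6.15 CPM on day 7, so F13a1 and Pf4 parted on day 7. The 8 platelet and megakaryocyte markers took between 0.00117% and 0.0138% of counts in any library. Fn1, a matrix gene that fibroblasts also express, made up 94.6% and 95.7% of the macrophage list on day 7 and 68.5% and 68.2% on day 3. Without it the other 11 genes took 0.0443% and 0.0370% of counts on day 3 and 0.0186% and 0.0148% on day 7, against 5.79e-4% and 0.0227% in sham. Ly6c2, which is among those 11, ran from 0.657 to 238 CPM in the 2 sham libraries, so this sham share is uncertain. Called higher than sham were 7 of the 12 genes on day 1, 9 on day 3, 7 on day 7, 6 on day 21 and 6 on day 60. Of the 12 genes 6 had their highest group mean on day 3 and 2, Ms4a7 and Fn1, on day 7, while the F13a1 libraries of days 3 and 7 overlapped. The part of macrophages in the F13a1 counts was not tested.

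**Figure D4:**
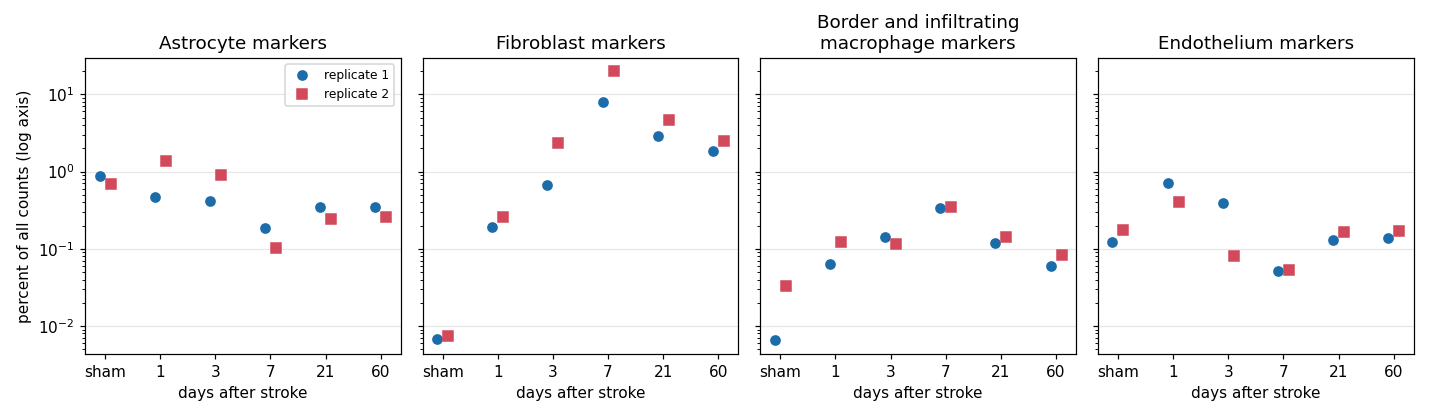
Percent of all counts (log axis) taken by the marker lists of astrocytes (12 genes), fibroblasts (10), border and infiltrating macrophages (12) and endothelium (10) in each library, in sham and at 1, 3, 7, 21 and 60 days after stroke. Circles are replicate 1 and squares replicate 2; the astrocyte share is lowest on day 7, where fibroblast markers take 8.01% and 19.7% and macrophage markers 0.341% and 0.345%, most of it from 3 collagen genes and from Fn1.

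Sequence of 250 bases upstream of a transcript start was at hand from RefSeq (GRCm38.p6) for 5 of the 8 members, namely Serpinb2, Plaur, F3, F13a1 and Kng2. These windows were searched on both strands for TGANTCA, the letters of AP-1 sites, TTNNGCAA for C/EBP, TTCNNNGAA for STAT and GGNNTTTCC for NF-kB, where N is any base. The NF-kB letters are a shorter form, searched after a longer one had matched no member window. Below are the windows of the 4 members with a match upstream of their first start in RefSeq, to let the matches be read in place. Capitals mark the matches, and each sequence runs 5′ to 3′ on the strand of its gene. The Kng2 window lies inside the gene as GENCODE M21 gives it, downstream of the first start there.
Serpinb2 (chr1:107511173-107511422, plus strand): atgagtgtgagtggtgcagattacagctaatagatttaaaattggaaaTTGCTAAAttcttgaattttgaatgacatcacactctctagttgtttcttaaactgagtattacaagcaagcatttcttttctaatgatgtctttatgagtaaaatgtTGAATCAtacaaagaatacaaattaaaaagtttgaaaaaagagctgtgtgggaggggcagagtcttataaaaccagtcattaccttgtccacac
Plaur (chr7:24462233-24462482, plus strand): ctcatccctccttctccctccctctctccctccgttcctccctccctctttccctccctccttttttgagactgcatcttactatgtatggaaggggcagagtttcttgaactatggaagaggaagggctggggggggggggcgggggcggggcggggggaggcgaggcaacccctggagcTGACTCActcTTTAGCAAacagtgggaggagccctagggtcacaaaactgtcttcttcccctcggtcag
F3 (chr3:121723287-121723536, plus strand): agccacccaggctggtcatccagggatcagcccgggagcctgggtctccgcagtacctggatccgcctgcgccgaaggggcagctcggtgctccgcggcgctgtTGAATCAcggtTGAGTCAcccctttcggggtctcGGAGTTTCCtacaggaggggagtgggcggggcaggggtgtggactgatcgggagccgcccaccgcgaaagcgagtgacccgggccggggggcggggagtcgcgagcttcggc
Kng2 (chr16:23029102-23029351, minus strand): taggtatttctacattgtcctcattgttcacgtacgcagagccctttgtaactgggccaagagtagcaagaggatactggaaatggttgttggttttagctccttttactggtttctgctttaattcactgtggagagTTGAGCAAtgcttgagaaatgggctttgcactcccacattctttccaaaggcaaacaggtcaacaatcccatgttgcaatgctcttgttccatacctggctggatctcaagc
TGANTCA was present in the windows of Serpinb2, 94 bases upstream of the start, of Plaur, 69 bases upstream, and of F3, 146 and 135 bases upstream. In Plaur the C/EBP letters lie 59 bases upstream, shortly after the AP-1 letters, in Serpinb2 they lie 202 bases upstream and in Kng2 they lie 112 bases upstream. A second annotated start of Serpinb2 has a further window with the STAT letters 77 bases upstream and the C/EBP letters 19 bases upstream, and the AP-1 letters of the first window lie 181 bases upstream of it. The NF-kB letters lie 112 bases upstream in F3 and 128 bases upstream of a second start of F13a1, whose first window held none of the 4 motifs. Of all 32851 windows of this length, 6.75% held TGANTCA, 9.56% the C/EBP letters, 7.02% the STAT letters and 4.93% the NF-kB letters. A match describes letters only, and no binding was measured.

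Over the 12 libraries, log2 levels of Plau and Plaur correlated at r = 0.881 and those of Serpinb2 and Plaur at r = 0.836, while Kng1 and Serpinb2 gave r = -0.25. These values describe libraries that share groups and depth by replicate. Of 11424 genes compared, those most like Kng1 were Cpxm1 (r = 0.987), Srpx (0.983) and Ssc5d (0.982), and those most like Kng2 were Fam65c (0.978), Cdhr1 (0.976) and Ssc5d (0.976). Most like Serpinb2 were Mrps27 (r = 0.946), Tm4sf1 (0.945) and Dll4 (0.927). Gabpb1 (r = 0.985), Wdr46 (0.983) and Tnfrsf12a (0.980) were most like Plaur, and Mtap (0.946), Tnfrsf10b (0.942) and Metrnl (0.939) most like Plau. For Plat these were Slc25a24 (r = 0.984), Csnk1a1 (0.981) and Cers2 (0.977). For F3 they were Nans (r = 0.956) and Spp1 (0.9503), and for F13a1 Lcp2 (0.967), Xpo1 (0.961) and Ttc13 (0.948).

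The other genes of these systems are set beside the members here. Their lists were also chosen with earlier results of these data known. The shares and medians below therefore describe these lists and are not a test of the systems. Of 61 listed genes 53 are in the files and were tested, and Klk1, Cpn2, F2, F11, F13b, Proc, Serpina5 and Cpb2 were not analysed here. Of the 53, 21 were called higher than sham and 1 lower on day 1, 24 and 2 on day 3, 30 and 1 on day 7, 30 and 1 on day 21, and 26 and 2 on day 60 (edgeR quasi-likelihood test, Benjamini-Hochberg adjusted p under 0.05 over all 15635 genes). Without replicate 2 of sham 14 were called on day 1. Among all genes tested 16.7% were called higher and 13.9% lower on day 1, 18.0% and 14.2% on day 3, 23.2% and 19.8% on day 7, 17.8% and 15.4% on day 21, and 16.8% and 14.8% on day 60. The median fitted log2 fold change of the 53 was 1.57 on day 1, 1.93 on day 3, 2.43 on day 7, 2.85 on day 21 and 2.395 on day 60, against 0.06, 0.16, 0.13, 0.07 and 0.01 over all genes. With genes at 0 in a group set to their bound, or left out where the other group was not above the floor, the median of the 53 was 1.69, 1.92, 2.16, 2.49 and 2.10. No such median was taken over all genes. Between neighbouring times, contrasts added after seeing the data, 2 of the 53 differed on day 3 against day 1, 6 on day 7 against day 3 and 1 on day 21 against day 7, where 3.57%, 6.29% and 0.441% of all genes did. The 5 comparisons with sham share its libraries. Exons of Ace, Klkb1, Thbs1 and Vkorc1 overlap those of predicted genes, so their reads may be mixed with those of a neighbour.

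In the kinin system 7 of 13 genes were called higher on day 1, 5 on day 3, 9 on day 7, 7 on day 21 and 6 on day 60. Bdkrb1, the inducible bradykinin receptor gene, rose at all 5 times, with log2 fold changes of 3.78 ± 0.70 on day 1, 2.76 ± 0.68 on day 3, 3.71 ± 0.70 on day 7, 5.13 ± 0.74 on day 21 and 3.89 ± 0.70 on day 60 (edgeR adjusted p = 0.00456, 0.0121, 0.00205, 0.000867 and 0.00313). Without replicate 1 of sham the adjusted p of day 3 was 0.0591. Bdkrb2, the constitutive bradykinin receptor gene, had 0 counts in sham and was at least 45.4-fold higher on day 1, with 4.84 and 4.62 CPM (edgeR adjusted p = 0.00719, or 0.0558 without replicate 2 of sham). Klkb1, the plasma kallikrein gene that cuts kininogen, stayed under 1 CPM in every library and with all libraries did not pass at any time (edgeR adjusted p between 0.293 and 0.839). Its values hang on 5 sham counts, all in replicate 1. Without that library no sham count is left, so no fold is given and the comparison depends on those 5 counts.

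Several enzymes that break down kinins were among the genes called higher. Mme, encoding neprilysin, had 56.8 and 72.1 CPM on day 7, 118 and 119 CPM on day 21, and 144 and 333 CPM on day 60, against 2.51 and 1.71 CPM in sham, and its log2 fold change was 4.95 ± 1.04, 5.82 ± 1.08 and 6.84 ± 1.13 at these times (edgeR adjusted p = 0.00369, 0.00315 and 0.00205). Mme and both kininogen genes were thus high together from day 7 on. Cpm, encoding carboxypeptidase M, rose at all 5 times, by 1.81 ± 0.52 on day 3 to 4.15 ± 0.57 on day 21 (edgeR adjusted p at most 0.0231), and Prcp, a prolylcarboxypeptidase gene, did so by 1.49 ± 0.42 on day 60 to 2.25 ± 0.43 on day 3 (edgeR adjusted p at most 0.0235). Cpd, a carboxypeptidase gene, rose at the 4 times from day 3 on, by 1.47 ± 0.43 to 2.45 ± 0.45 (edgeR adjusted p at most 0.0279). Ace, encoding angiotensin-converting enzyme, rose by 2.34 ± 0.72 on day 1, 2.98 ± 0.74 on day 7 and 3.96 ± 0.77 on day 21 (edgeR adjusted p = 0.0338, 0.00888 and 0.00399), and Ece1, encoding endothelin-converting enzyme, by 3.55 ± 0.67 on day 1 and 2.15 ± 0.63 on day 7 (edgeR adjusted p = 0.00469 and 0.0191). With 1 library left out at a time, calls were lost for Cpm on days 3 and 7, Prcp on days 1, 21 and 60, Cpd on days 3, 21 and 60, Ace on days 1 and 7 and Ece1 on day 7, with adjusted p of at most 0.173. Cpn1, a subunit gene of carboxypeptidase N named after its values were seen, was the gene called lower on days 3 and 60, where it had 0 counts, against 0.478 and 0.375 CPM in sham (edgeR adjusted p = 0.0343 and 0.0320, at least 3.93-fold and 4.41-fold lower). Both calls were lost without either sham library. That of day 3 was also lost without replicate 2 of day 3 and without either library of day 7 or day 21. That of day 60 was also lost without either library of day 60.

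Of 13 further coagulation factor genes and their processing genes, 3 were called higher on day 1, 5 on day 3, 6 on days 7 and 21, and 5 on day 60. F7, whose protein is the partner of tissue factor, had 0 and 0.492 CPM on day 1, 20.6 and 4.32 CPM on day 3, 6.25 and 4.88 CPM on day 7, 1.40 and 2.32 CPM on day 21, and 2.46 and 3.26 CPM on day 60, against 0 and 0.115 CPM in sham. It rose on day 3 (log2 fold change 7.24 ± 1.48, edgeR adjusted p = 0.00534) and on day 7 (6.08 ± 1.42, edgeR adjusted p = 0.00633). These values hang on 12 sham counts, all in replicate 2. Without that library no sham count is left, so no fold is given. Without replicate 1 of sham the values were 6.72 and 5.57. The calls of days 21 and 60 were lost without either sham library (edgeR adjusted p = 0.0520 to 0.114). F3 and F7 were therefore both above sham in every library of days 3 and 7. F10, the next factor of that pathway, had 2 counts in sham, so no fold is given, and 7.40 and 0.913 CPM on day 3. F9 had 0 counts in sham and was at least 15.9-fold higher on day 7 (edgeR adjusted p = 0.0127, or 0.0880 without replicate 2 of sham). Lman1, which carries factors V and VIII out of the endoplasmic reticulum, rose at all 5 times by 2.53 ± 0.36 to 3.46 ± 0.38 (edgeR adjusted p at most 0.00175). Ggcx and Vkorc1, which carry out and sustain the vitamin K-dependent carboxylation of clotting factors, rose by 4.03 ± 0.52 and 2.73 ± 0.35 on day 7 (edgeR adjusted p = 0.000300 and 0.000285).

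Of 15 inhibitors and receptors of coagulation 7 were called higher on days 1 and 3, 8 on day 7, 10 on day 21 and 8 on day 60. Tfpi, encoding the plasma inhibitor of tissue factor, rose at all 5 times, by 3.24 ± 0.38 on day 1, 3.95 ± 0.39 on day 3, 4.33 ± 0.40 on day 7, 4.06 ± 0.39 on day 21 and 4.50 ± 0.40 on day 60 (edgeR adjusted p = 0.000903, 0.000210, 6.17e-05, 0.000117 and 8.07e-05). Its relative Tfpi2 had 84.1 and 65.5 CPM on day 1 and 12.3 and 10.97 CPM on day 60, against 0.299 and 0.173 CPM in sham. F3 and its inhibitor Tfpi were thus both above sham at every time. Serping1, encoding the inhibitor of plasma kallikrein and of the first complement component, had 105 and 107 CPM on day 1, 229 and 473 CPM on day 3, 1093 and 1361 CPM on day 7, 6869 and 7500.1 CPM on day 21, and 5677 and 7100.1 CPM on day 60, against 19.5 and 18.4 CPM in sham. Its log2 fold change was 8.57 ± 0.57 on day 21 (edgeR adjusted p = 4.26e-05). Group means of Serping1, Kng1 and Kng2 were highest on day 21, but the libraries of days 21 and 60 overlapped for each of them. F2r, the main thrombin receptor gene, rose most on day 7, by 5.59 ± 0.66 (edgeR adjusted p = 0.000197). Procr and Thbd, receptors of the protein C pathway, rose by 5.23 ± 0.72 and 4.13 ± 0.72 on day 1 (edgeR adjusted p = 0.00157 and 0.00366). Serpina10, an inhibitor of factor X, had 0 counts in sham and was at least 36.9-fold higher on day 21 and 52.1-fold on day 60 (edgeR adjusted p = 0.00491 and 0.00471).

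Of 12 further genes of the plasminogen system, 4 were called higher and 1 lower on day 1, and 7 and 1 at each later time. Plg, the plasminogen gene, had 0 counts in sham, on days 3 and 7, and under 1 CPM in every library, and it did not pass at any time (edgeR adjusted p of at least 0.0913). Serpinf2, encoding the plasmin inhibitor, had 0 counts in sham and was at least 26.6-fold higher on day 1 (edgeR adjusted p = 0.0208), a call lost without either sham library (0.0725 and 0.124) and without replicate 2 of day 1 (0.0660).

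Anxa2, whose product binds plasminogen and tissue-type activator on cells, rose at all 5 times by 2.87 ± 0.46 to 4.03 ± 0.49 (edgeR adjusted p at most 0.00152). S100a10, whose product pairs with that of Anxa2 and which is named after its values were seen, had 80.4 and 78.3 CPM on day 3 and 17.4 and 14.3 CPM on day 7, against 25.3 and 19.9 CPM in sham, and was called higher on day 3 alone (log2 fold change 1.81 ± 0.40, edgeR adjusted p = 0.00745). Plgrkt, a plasminogen receptor gene, rose at the 4 times from day 3 on, by 2.73 ± 0.33 on day 3 (edgeR adjusted p = 0.000493). Lrp1, which encodes a receptor that clears activator and inhibitor complexes, had 1842 and 2252 CPM on day 7, against 106 and 145 CPM in sham (log2 fold change 4.03 ± 0.51, edgeR adjusted p = 0.000276). Igf2r, whose protein also binds the urokinase receptor, rose by 3.86 ± 0.37 on day 7 (edgeR adjusted p = 7.59e-05). Thbs1, encoding thrombospondin, rose by 7.02 ± 0.65 on day 3 (edgeR adjusted p = 0.000154). Vtn, encoding vitronectin, a matrix protein that binds the urokinase receptor, rose at all 5 times, with 645 and 597 CPM on day 1, against 88.5 and 91.0 CPM in sham (log2 fold change 2.79 ± 0.36, edgeR adjusted p = 0.00132). Serpini1, the neuroserpin gene, named after its values were seen, was called lower at all 5 times, with a log2 fold change of -2.61 ± 0.52 on day 7 (edgeR adjusted p = 0.00280), and its calls on days 1, 3 and 60 were lost without either sham library, among others, and that of day 21 without replicate 2 of day 21. Neuron markers took 0.0116% and 0.00647% of counts on day 7, against 0.449% and 0.449% in sham, and their part in the level of Serpini1 was not tested.

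**Figure D5:**
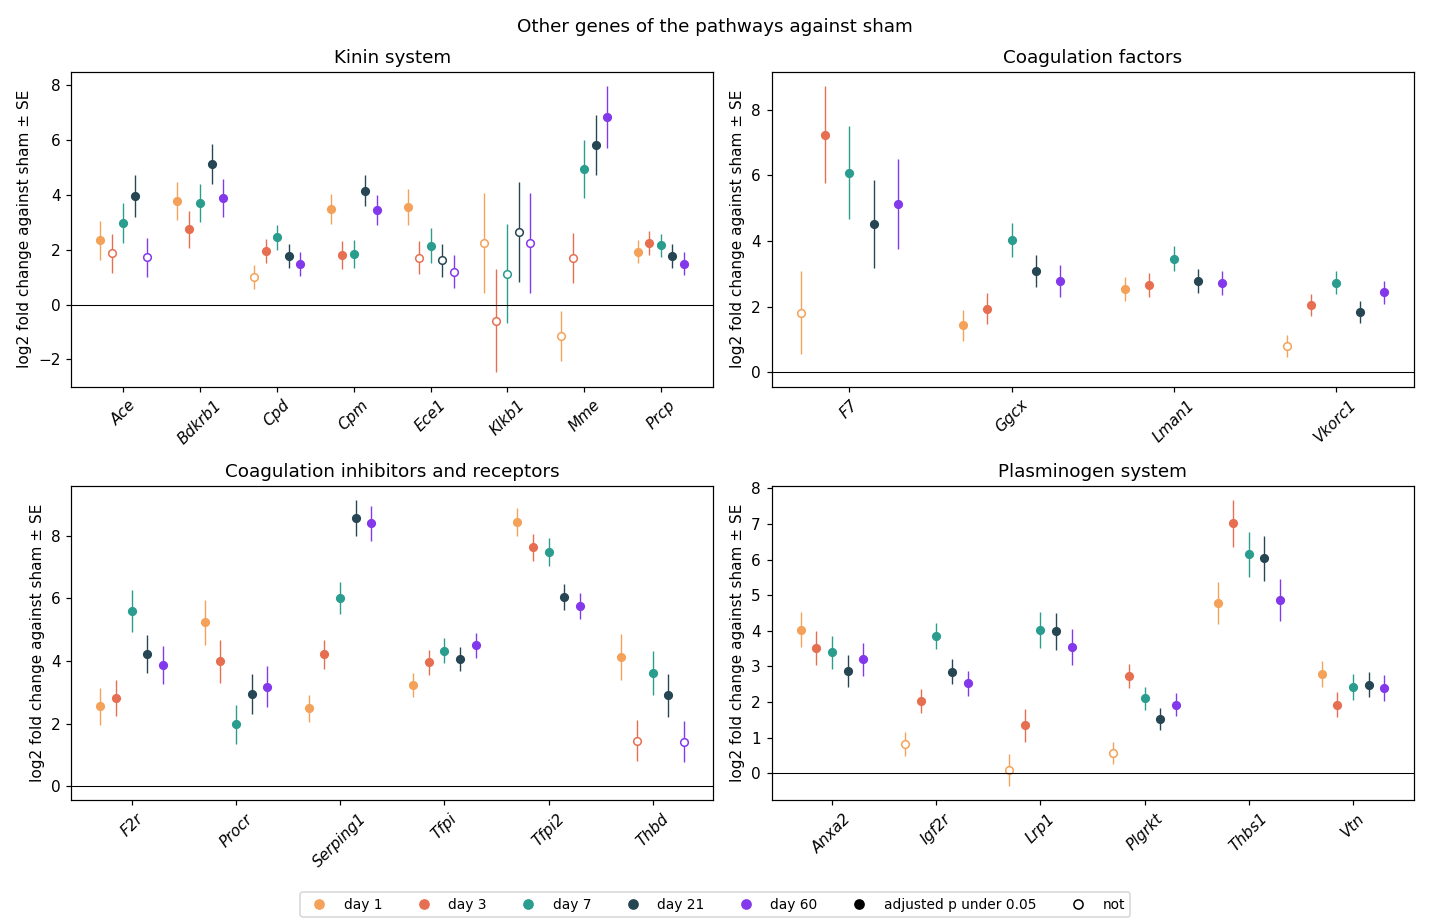
Log2 fold change against sham ± standard error (vertical axes) of the named genes of 4 lists at 1, 3, 7, 21 and 60 days after stroke, from the edgeR fit, with filled circles for adjusted p under 0.05 and open circles for the rest. Genes with 3 or fewer counts in sham are left out; Bdkrb1, Tfpi, Tfpi2, Serping1, Anxa2, Thbs1 and Vtn are filled at all 5 times, while Klkb1 is open throughout.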

How the data were processed

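Astrocytes sorted from mouse cortex were sequenced in 12 libraries, 2 in each of 6 groups. The authors deposited raw counts, 1 value per gene symbol and library. The submitters' processing notes name the mm10 build, HTSeq 0.6.1 and Bowtie2 2.3.4.2, while annotation, strand setting and the treatment of multi-mapping reads are not given in the sources used here. The table of the whole series and the sample files were identical in 189288 of 189288 values. Reads lost or shared at counting bear most on close copies such as Kng1 and Kng2.

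The counts entered edgeR 4.0.16 (R 4.3.3): filterByExpr with a minimum count of 10 kept 15635 genes, TMM factors ran from 0.689 to 1.22, and 1 quasi-likelihood fit had a coefficient for each group (6 residual and 4.15 prior degrees of freedom, median biological coefficient of variation 0.408). CPM divides a count by the library total times its TMM factor, and percents of counts use the plain total. The standard error is the size of the log2 fold change divided by the square root of F. Genes were called at a Benjamini-Hochberg adjusted p under 0.05. A floor of 3 counts per library stood in for groups with 0 counts, and groups with 1 to 3 counts get CPM only. Correlations used log2 CPM with a prior count of 2. Replicate numbers are not said to mark a batch, but in 15 of 15 pairs of groups the differences of replicate 2 from replicate 1 had r between 0.319 and 0.713 (threshold 0.1), so a replicate block, which leaves 5 residual degrees of freedom, was an alternative. Others were DESeq2 1.42.0, its size factors in edgeR, no filter, a prior count of 2 and each library left out. The test was checked on simulated counts.

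The members and the gene lists were chosen with earlier results of these data known. The named genes of the wider lists are, in each of 4 lists and each comparison with sham, up to 4 called genes of largest change with at least 1 CPM in the higher group, and always Plg, Tfpi, Bdkrb1, Bdkrb2, F2r and Klkb1. For each member the 3 most correlated genes with at least 10 CPM in some group were named. A pair of genes that these rules name is not reported here, and one of them was left out of the lists and their counts. Symbols were located in GENCODE M21 (mm10), and upstream windows are from RefSeq. There were 11 marker lists, of which those of microglia, neutrophils, pericytes and oligodendrocytes stand beside no result in the text. Microglia markers took 0.0152% to 0.261% of counts, neutrophil markers at most 0.0179%, pericyte and smooth muscle markers 0.0452% to 0.177% and oligodendrocyte markers 0.0443% to 1.04%.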

Additional observations from a re-analysis of the deposited data

Results flagged for a closer look

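Among the other genes of the kinin, coagulation and plasminogen systems, 9 differences between neighbouring times passed an adjusted p of 0.05 in edgeR's quasi-likelihood test, a set of contrasts chosen after seeing the data. They were flagged because the effect against sham differed between 2 times. Of all genes 3.57% passed between days 3 and 1, 6.29% between days 7 and 3 and 0.441% between days 21 and 7. Each was tried under 15 other settings, mostly with 1 library left out. At day 3 against day 1, Plgrkt gave a log2 difference of 2.17 ± 0.32 (edgeR adjusted p = 0.00601, lost under 1 of 15 settings) and Thbs1 2.23 ± 0.52 (edgeR adjusted p = 0.0473, lost under 9). At day 7 against day 3, Lrp1 gave 2.68 ± 0.48 (edgeR adjusted p = 0.0174, lost under 3, at most 0.104) and S100a10, which forms a complex with the product of Anxa2, gave -2.32 ± 0.41 (edgeR adjusted p = 0.0154, lost under 3, at most 0.128). F2r gave 2.77 ± 0.58 (edgeR adjusted p = 0.0260, lost under 4, at most 0.135). Over the same interval Ggcx gave 2.09, Igf2r 1.83 and Serping1 1.81, and these calls were lost under 6, 4 and 8 settings. Serping1 gave 2.55 ± 0.44 at day 21 against day 7 (edgeR adjusted p = 0.0442, lost under 8, at most 0.291).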

How the results depend on the processing

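With each library left out in turn, the calls among the 53 other pathway genes came to 14 to 23 at day 1, 19 to 27 at day 3, 24 to 32 at day 7, 23 to 32 at day 21 and 20 to 28 at day 60, against 22, 26, 31, 31 and 28 with all libraries. The lowest value of day 1 was without replicate 2 of sham. Over all genes the same range was 1954 to 5037 at day 1, 2941 to 5315 at day 3, 4476 to 6949 at day 7, 2628 to 5593 at day 21 and 2654 to 5317 at day 60, with all libraries 4774, 5028, 6719, 5190 and 4929. With the replicate number as a block the pathway calls were 26, 33, 32, 35 and 33 and the calls over all genes 6754, 6861, 8459, 7227 and 6834, so the block moved no count by over 1.5 times. DESeq2 size factors placed the median of all genes at -0.03, 0.05, -0.01, -0.05 and -0.08, against 0.06, 0.16, 0.13, 0.07 and 0.01 with TMM. No called result changed direction under the alternatives run, while the member F13a1 at day 60 was below sham at a log2 value of -2.53 without replicate 2 of that day. Of values not called, those of F7 and Lrp1 at day 1, Mme at day 3 and Klkb1 at days 3 and 7 changed sign under at least 1 alternative. A prior count of 2 lowered the fitted values of genes at 0 in sham, which are given as bounds for that reason. A group of 2 libraries, one of them 6.30 to 9.63 times as deep as the other, limits what can be said of rare genes such as Plau and Serpinb2.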
